A study of Mus musculus with 4 samples.

Results

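The genes described here encode the mitochondrial ribosomal proteins, in macrophages grown from mouse bone marrow. They are the protein-coding genes whose symbol is Mrpl or Mrps followed by a digit and whose value reached 1 FPKM (fragments scaled to transcript length and to the fragments of the library) in at least 1 library. All 78 coding genes with such a symbol passed, of 52550 gene rows in the deposited table, and each of the 78 was also at or above 1 FPKM in every library. By symbol, 49 belong to the large subunit (Mrpl) and 29 to the small subunit (Mrps).

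The study set wild-type (WT) macrophages beside macrophages with a knockout of OGT, the transferase that adds the sugar O-GlcNAc to proteins of nucleus and cytosol, at 0 h and after 24 h of polarisation with IL-4, a cytokine that drives alternative activation. The 4 groups were WT at 0 h, WT at 24 h, OGT knockout at 0 h and OGT knockout at 24 h, each with 1 library. All groups came from marrow kept in M-CSF (20 ng/mL, 7 days), the factor that turns its cells into macrophages, and the IL-4 dose was 20 ng/mL. Libraries of 0 h are tagged with IL-4 too, and their time alone marks them as cells before the cytokine. The sources used here do not give the mouse strain and age, the part of Ogt that was deleted and how, or whether several animals were pooled. With 1 library per group there is no replicate error, so no test was possible and every value below describes these libraries. No culture held for 24 h without IL-4 is labelled, so IL-4 and time in culture cannot be told apart.

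Ogt was lower in both knockout libraries but not absent: its levels were 27.4 (WT, 0 h), 29.8 (WT, 24 h), 14.2 (knockout, 0 h) and 14.5 FPKM (knockout, 24 h), the order of every set of 4 values from here on. The 8 macrophage markers were present in every library, with a summed level of 18670, 6329, 15640 and 6363 FPKM. FPKM totals lay between 338704 and 353093. Depth is not stated for these libraries. The spacing of low values put it at about 20.2 to 22.0 fragments for 1 kb of transcript at 1 FPKM, which is an estimate and not a count. At that depth, counting alone would give a log2 ratio between 2 libraries a standard error of 0.308 to 0.321 at 2 FPKM. At 5 FPKM it would be 0.195 to 0.203. Both are for a transcript of 1 kb and a ratio of FPKM with nothing added, without any variation between cultures. On the log2(FPKM + 1) scale of the differences below, these errors would be smaller.

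Mitochondria translate the few proteins encoded by their own genome, all of them subunits of the oxidative phosphorylation complexes, on a ribosome of their own. Its RNA comes from the mitochondrial genome, while all of its proteins are encoded in the nucleus, made in the cytosol and imported. The large subunit forms peptide bonds and releases the chain through an exit tunnel facing the inner membrane, and the small subunit binds and decodes the messenger RNA. Some of its proteins have bacterial counterparts and others are found only in mitochondria. In macrophages, alternative activation by IL-4 is known for an increased reliance on mitochondrial respiration.

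Promoters of these genes were compared for short motifs, because NRF1 and the ETS family factor GABP are known regulators of nuclear genes for mitochondria. RefSeq promoter windows on GRCm38.p6, which run from 250 bases before to 50 bases after the start of a gene, were matched for 69 of the 78 genes (75 windows). Windows of 5 genes are shown: Mrpl12 and Mrpl42, at least 2-fold higher at 24 h in both genotypes, Mrps18b, at least 2-fold higher at 24 h in WT with a smaller difference in the knockout, Mrps21, the gene with the highest level, and Mrpl45, lower at 24 h in both genotypes. Each is the 250 bases before the start, 5′ to 3′ on the strand of the gene, with the NRF1 motif (GCGCNTGCG or its reverse complement CGCANGCGC) in capitals. They lie at chr11:120484387-120484636 (+) for Mrpl12, chr10:95501950-95502199 (-) for Mrpl42, chr17:35916441-35916690 (-) for Mrps18b, chr3:95871515-95871764 (-) for Mrps21 and chr11:97315466-97315715 (+) for Mrpl45.
Mrpl12: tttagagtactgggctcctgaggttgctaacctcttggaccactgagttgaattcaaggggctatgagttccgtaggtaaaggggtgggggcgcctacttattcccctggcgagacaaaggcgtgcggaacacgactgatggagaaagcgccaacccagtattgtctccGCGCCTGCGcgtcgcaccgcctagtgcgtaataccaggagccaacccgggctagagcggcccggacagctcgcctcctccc
Mrpl42: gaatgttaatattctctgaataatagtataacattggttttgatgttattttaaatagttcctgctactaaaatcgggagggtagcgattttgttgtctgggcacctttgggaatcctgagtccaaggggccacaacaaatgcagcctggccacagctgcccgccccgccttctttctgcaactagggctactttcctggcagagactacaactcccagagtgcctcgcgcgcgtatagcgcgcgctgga
Mrps18b: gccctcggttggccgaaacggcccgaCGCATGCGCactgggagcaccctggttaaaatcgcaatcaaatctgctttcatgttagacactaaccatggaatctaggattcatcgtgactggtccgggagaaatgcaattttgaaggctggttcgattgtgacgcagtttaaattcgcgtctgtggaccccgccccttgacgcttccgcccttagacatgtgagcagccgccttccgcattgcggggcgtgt
Mrps21: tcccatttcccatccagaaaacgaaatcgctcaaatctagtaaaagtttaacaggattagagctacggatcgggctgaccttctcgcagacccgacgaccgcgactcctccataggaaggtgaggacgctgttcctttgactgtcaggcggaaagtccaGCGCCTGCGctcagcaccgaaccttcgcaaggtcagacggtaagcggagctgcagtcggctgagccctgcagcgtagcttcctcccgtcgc
Mrpl45: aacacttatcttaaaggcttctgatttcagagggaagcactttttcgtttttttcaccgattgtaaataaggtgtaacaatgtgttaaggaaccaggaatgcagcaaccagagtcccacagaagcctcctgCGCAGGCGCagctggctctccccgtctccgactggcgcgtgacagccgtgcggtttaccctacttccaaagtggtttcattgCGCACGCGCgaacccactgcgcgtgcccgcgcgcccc

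In Mrpl12 the NRF1 letters begin 81 bases before the start. Mrps21 holds them 91 bases before and Mrps18b 224 bases before the start, while Mrpl45 holds them at 119 and 37 bases before and again 16 bases after it. The stretch printed for Mrpl42 holds none, and its YY1 motif (AAGATGGCG) lies 28 bases after the start. So the NRF1 letters stand in the windows of genes that were higher at 24 h and of a gene that was lower.

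Over both strands, the NRF1 motif was in 18 of the 75 windows (24%), against 6.31% of all 32851 windows in the table and 14.0% of the 10607 windows of genes at 1 FPKM or more in any library. The ETS motif (CCGGAAG) was in 26 windows (34.7%), against 8.86% and 19.4%. The YY1 motif was in 8 windows (10.7%), against 1.40% and 3.38%. The E-box (CACGTG), the site of MYC and its relatives, was in 7 windows of 5 genes (9.33%), against 7.15% and 10.4%. The GC-box (GGGCGG), bound by the SP family, was in 39 (52%), against 35.7% and 62.5%. The binding motif of the oestrogen-related receptors (TCAAGGTCA) was in 0 of the 75 windows, against 0.423% and 0.273%. Of the 69 genes, 43 had at least 1 of the NRF1, ETS and YY1 motifs, 7 had both NRF1 and ETS, and 26 had none of the 3.

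The responses of genes with and without each motif were set side by side. The median log2 difference between 24 h and 0 h in WT was 0.27 for the 18 genes with the NRF1 motif and 0.39 for the 51 without it. In the knockout these medians were 0.07 and 0.28. For the ETS motif they were 0.34 with (26 genes) and 0.38 without (43) in WT, and 0.27 and 0.25 in the knockout. For YY1 they were 0.44 with (8) and 0.33 without (61) in WT, and 0.26 with and without it in the knockout. The widest gap in WT was that of the E-box, with 0.67 for the 5 genes that hold it and 0.35 for the 64 others. In the knockout these were 0.38 and 0.26. The 5 genes were split in WT, with Mrpl36 at 0.92, Mrpl20 at 0.82 and Mrpl2 at 0.67, but Mrpl37 at 0.10 and Mrps18c at 0.08. For the GC-box the medians were 0.41 with (34) and 0.34 without (35) in WT, and 0.27 and 0.22 in the knockout. Each motif is a match of letters only, and no binding was measured.

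The summed level of the 78 genes was 674.2, 943.2, 666.3 and 861.6 FPKM. As a share of the FPKM total this was 0.199%, 0.267%, 0.196% and 0.244%, so both 24 h libraries were above both 0 h libraries and the 0 h libraries lay close together. The large subunit took 0.134%, 0.177%, 0.132% and 0.161%. The small subunit took 0.0650%, 0.0906%, 0.0643% and 0.0829%. In bulk RNA, fewer cells of a type and less RNA per cell cannot be told apart, which holds for every level given here.

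Levels were modest and differed widely among genes whose products meet in 1 particle. The median large-subunit gene stood at 8.16, 10.99, 7.62 and 9.03 FPKM. The median small-subunit gene stood at 5.52, 8.21, 5.31 and 6.42 FPKM. In each library the highest gene was 24.2 to 34.7 times the lowest. FPKM is scaled to transcript length, but the level still went with annotated length at the extremes. The 5 highest genes by mean level have 739 (Mrps21) to 1532 (Mrpl12) exon bases. The 5 lowest have 3332 (Mrpl58) to 8631 (Mrps35). How far the annotated length sets the order between genes was not tested.

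Mrps21, a small-subunit protein with a bacterial counterpart, had the highest level in every library, at 40.6, 54.0, 43.2 and 43.4 FPKM. It lies at chr3:95862634-95871519 on the - strand. The next genes by mean level all belong to the large subunit. Mrpl27, whose bacterial counterpart reaches to the site of peptide bond formation, stood at 29.0, 31.5, 22.3 and 26.1 FPKM. Mrpl12, part of the stalk that recruits translation factors, stood at 14.6, 37.9, 12.9 and 35.0 FPKM. Its place among the genes therefore depends on the time, as it was lower than Mrpl27 at 0 h and higher at 24 h. Mrpl18, in the central protuberance, stood at 20.9, 29.5, 17.9 and 29.4 FPKM. Mrpl43, found only in mitochondria, stood at 20.7, 24.995, 25.5 and 24.8 FPKM. Mrpl18 was the lower of these 2 in the knockout at 0 h and the higher in the other 3 libraries, so their order is not firm.

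The lowest levels came from both subunits. Mrps35 stood at 1.37, 2.36, 1.25 and 1.79 FPKM. Mrps10, in the head of the small subunit, stood at 1.44, 2.07, 1.62 and 2.23 FPKM. Mrpl32, a large-subunit protein matured by a protease of the inner membrane, stood at 1.55, 2.08, 1.93 and 1.98 FPKM. These 3 genes change places between libraries. Mrpl15 stood at 1.95, 3.28, 1.41 and 2.69 FPKM. Mrpl58, a peptidyl-tRNA hydrolase built into the large subunit, stood at 3.37, 2.31, 2.00 and 1.87 FPKM. Genes under 5 FPKM numbered 29, 22, 30 and 24 of the 78. The order of the 78 levels was much the same in all libraries, with a Spearman rho of 0.911 to 0.98 between pairs of libraries across 78 genes. The highest was between the 2 libraries at 24 h. These points share gene length and annotation in all libraries and are a description.

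**Figure D1:**
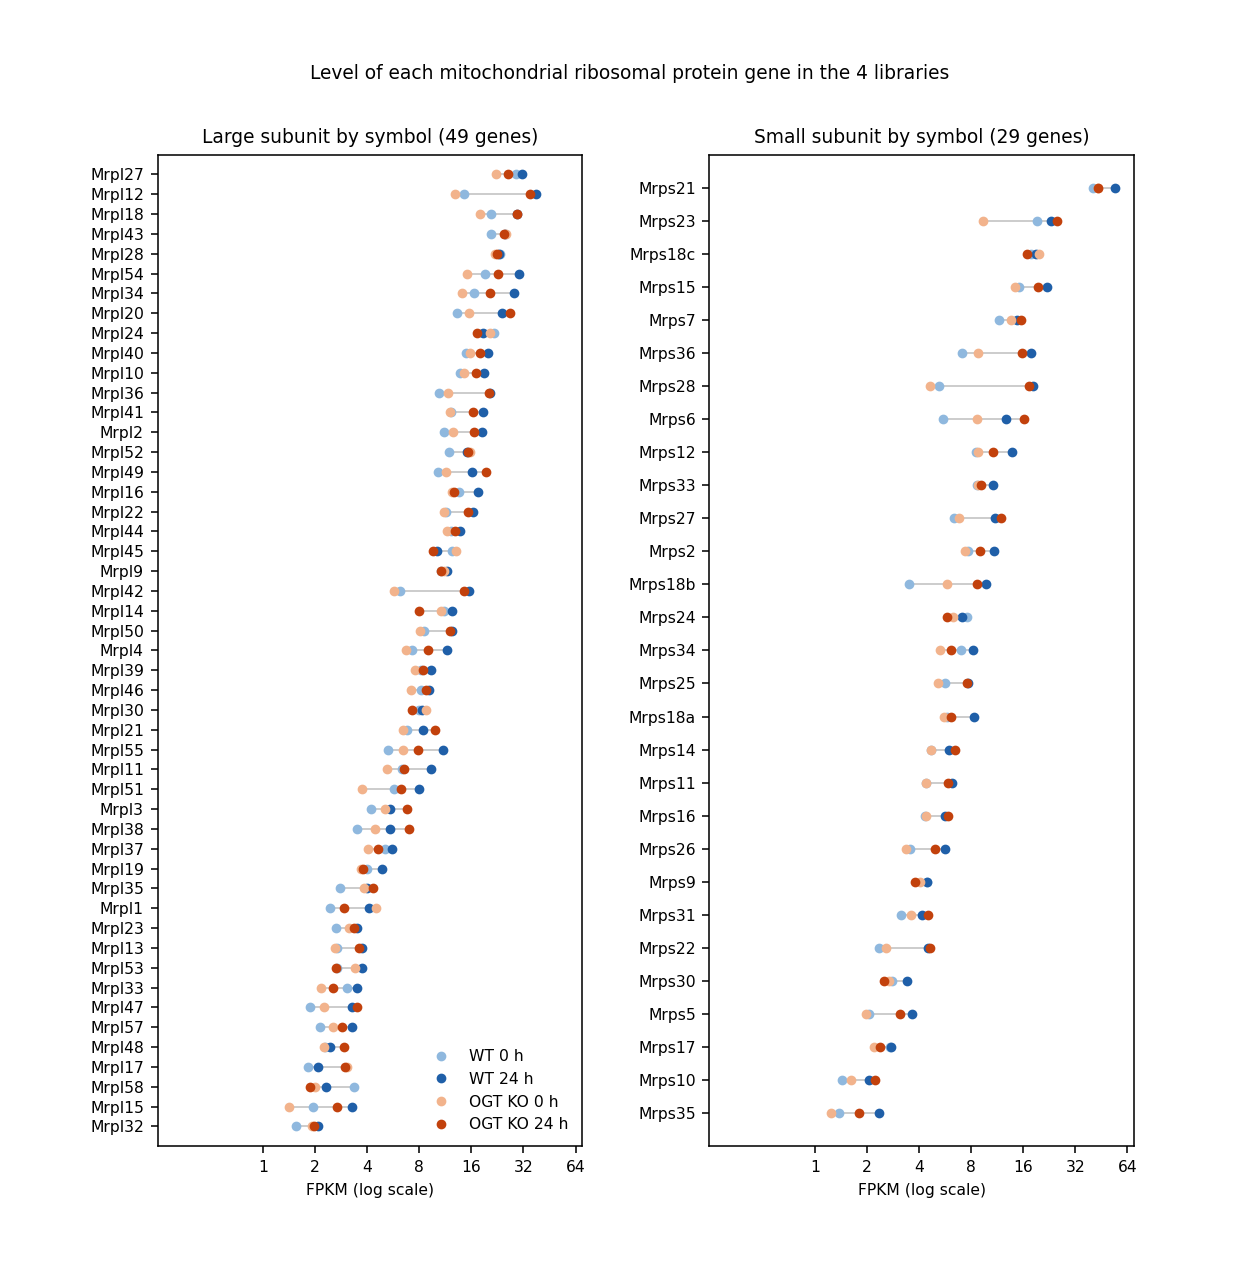
Each row is a mitochondrial ribosomal protein gene and each point its FPKM (log axis) in 1 of the 4 libraries, large subunit at left and small subunit at right, sorted by mean level, with a grey line from the lowest to the highest library. Mrps21 leads at 40.6 to 54.0 FPKM, Mrps35 is at 1.25 to 2.36, and in Mrps28, Mrpl12 and Mrpl42 both 24 h points stand clear of both 0 h points.

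Certain genes share exon sequence with another annotated gene, which limits their values. This held for 33 of the 78 (22 large, 11 small), and whether the libraries keep strand is not stated in those sources. Mrpl53 shares 695 of its 790 exon bases with another coding gene on the same strand. Mrps34 has 2064 exon bases and shares 1309 with Mapk8ip3 on the opposite strand. It also shares 763 with Nme3 on the same strand, which stood at 4.86, 1.95, 3.04 and 2.11 FPKM. Mrps18b shares 638 exon bases with an antisense gene that stayed at or below 0.386 FPKM. Mrps6 shares 305 with Gm49711, a coding gene on the same strand that has no value here, and 159 with Slc5a3, which was between 0.471 and 1.46 FPKM. Mrps11 and Mrpl46, a gene of each subunit in head-to-head order, overlap by 173 exon bases. Mrps28 and Mrpl42 overlap no other gene. Processed pseudogenes were a further limit: Mrpl23-ps1 stood at 8.46, 10.5, 9.23 and 12.03 FPKM, above Mrpl23 itself at 2.66, 3.52, 3.16 and 3.38 FPKM.

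In WT, most mitochondrial ribosomal protein genes were higher after IL-4 than before it, by a small amount. All differences are on the log2(FPKM + 1) scale, which understates those of low genes. The difference was above 0 for 72 of the 78 genes, while 52.0% of the 11687 genes kept in this comparison were above 0. Its median was 0.39 over the 78 genes, with quartiles of 0.21 and 0.57, and 0.02 over all genes kept. The 2 subunits were alike, with 45 of 49 and a median of 0.36 in the large and 27 of 29 and a median of 0.40 in the small subunit.

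At least 1.5-fold higher were 18 genes (10 large, 8 small), or 23.1% of the set, beside 13.3% of all genes kept. None was 1.5-fold lower, beside 13.3% again for that direction. At least 2-fold higher were 6 genes (2 large, 4 small), or 7.69%, beside 4.76%. With 5 in place of 1 as the pseudocount, 10 genes were past 1.5-fold and 2 past 2-fold.

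Mrps28, the counterpart of a bacterial protein that binds messenger RNA near where it leaves the small subunit, had the widest difference. It stood at 5.25, 18.3, 4.64 and 17.3 FPKM (chr3:8802146-8923918, - strand), a log2 difference of 1.63 in WT. Both 24 h libraries were more than 3 times as high as both 0 h libraries. Mrpl12 (chr11:120484613-120489065, + strand), with the values given above, had a log2 difference of 1.32 in WT. Mrpl42, a mitochondrial addition to the large subunit, stood at 6.21, 15.6, 5.72 and 14.5 FPKM (chr10:95480805-95501940, - strand), a log2 difference of 1.204. In these 3 genes the genotypes were near each other at both times.

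The other 3 genes past 2-fold in WT carry Mrps symbols and were higher in the knockout already at 0 h. Mrps18b, a small-subunit protein that is 1 of 3 related MRPS18 proteins, stood at 3.49, 9.77, 5.77 and 8.71 FPKM (chr17:35910379-35916389, - strand), a log2 difference of 1.26 in WT. Mrps36 stood at 7.07, 17.8, 8.81 and 15.7 FPKM (chr13:100735955-100744659, - strand), a log2 difference of 1.22. Despite its symbol, the Mrps36 product is known as a subunit of the oxoglutarate dehydrogenase complex of the citric acid cycle. Its processed pseudogene Mrps36-ps1 was also higher at 24 h, at 2.13, 6.01, 2.47 and 6.29 FPKM. Mrps6, whose bacterial counterpart pairs with that of the MRPS18 proteins, stood at 5.52, 12.7, 8.64 and 16.2 FPKM (chr16:92058270-92112227, + strand), a log2 difference of 1.07. In each of the 3 genes both 24 h libraries were above both 0 h libraries.

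The 6 genes below 0 in WT had small differences. Mrpl45, the protein that anchors the large subunit to the inner membrane, stood at 12.4, 10.1, 13.1 and 9.57 FPKM, a log2 difference of -0.27. Mrpl24, at the exit of the tunnel like Mrpl45, stood at 21.6, 18.6, 20.5 and 17.3 FPKM, a log2 difference of -0.21. In these 2 genes alone were both 24 h libraries below both 0 h libraries, beside 31.5% of 12000 genes. Mrps24 stood at 7.55, 7.10, 6.26 and 5.80 FPKM (-0.08), and Mrpl28 at 23.6, 23.2, 21.9 and 22.4 FPKM (-0.02). Mrpl58 had the lowest difference, -0.40, with 3.37 FPKM at 0 h and 2.31 FPKM at 24 h over 3332 exon bases. Mrps9 was near 0.

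In the knockout the pattern was similar and the median smaller. The 24 h library was above the 0 h library for 63 of the 78 genes (38 large, 25 small), beside 52.7% of the 11577 genes kept. The median difference was 0.27 over the 78 genes, 0.22 in the large and 0.31 in the small subunit, and 0.03 over all genes kept. At least 1.5-fold higher were 14 genes (8 large, 6 small), or 17.9%, beside 13.8% of all genes kept. None was 1.5-fold lower, beside 13.4%. At least 2-fold higher were 4 genes, or 5.13%, beside 5.16%, a share at the level of all genes.

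Mrps28 led again, with a log2 difference of 1.69 in the knockout, and Mrpl12 (1.38) and Mrpl42 (1.21) were also past 2-fold. The fourth was Mrps23, a protein found only in the mitochondrial small subunit (chr11:88204388-88211507, + strand). It stood at 19.2, 23.1, 9.43 and 25.1 FPKM, so its log2 difference of 1.32 in the knockout goes with a low value before IL-4, apart from the other 3 libraries. Mrps6 had a difference of 0.83 in the knockout. Of the 15 genes below 0 in the knockout, Mrpl1 was lowest (-0.48) and Mrpl53 was at -0.28, both under 5 FPKM. Among those at 5 FPKM or more the 5 lowest were Mrpl45 (-0.42), Mrpl14 (-0.38), which lies at the interface of the subunits, Mrpl30 (-0.23), Mrpl24 (-0.23) and Mrps18c (-0.21). Mrpl30 stood at 8.004, 8.28, 8.78 and 7.32 FPKM. Mrps18c, another of the MRPS18 proteins, stood at 17.7, 18.8, 19.6 and 16.8 FPKM.

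Read together, the genotypes share no library in their IL-4 comparisons. Of the 78 genes, 62 were above 0 in both genotypes (37 large, 25 small), or 79.5%, beside 43.5% of 12000 genes. Below 0 in both were 5, or 6.41%, beside 39.5%. Above 0 in WT and below 0 in the knockout were 10, or 12.8%, beside 8.03%, and 1, Mrpl28, was the reverse (1.28%, beside 8.73%). In 55 genes (32 large, 23 small), or 70.5%, both 24 h libraries were above both 0 h libraries, beside 35.3% of 12000 genes. Past 1.5-fold in both genotypes were 10 genes, or 12.8%, beside 9.6% of the 12000: Mrpl12, Mrpl20, Mrpl36, Mrpl42, Mrpl49, Mrps6, Mrps22, Mrps27, Mrps28 and Mrps36. Among them Mrpl20, known in bacteria for its part in the assembly of the large subunit, stood at 13.2, 24.1, 15.6 and 26.8 FPKM. Mrpl36, a small protein of the large subunit, stood at 10.4, 20.6, 11.8 and 20.2 FPKM. Across the 78 genes, the differences in WT and in the knockout had a Spearman rho of 0.736 and a Pearson r of 0.747, and across 12000 genes these were 0.819 and 0.859.

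**Figure D2:**
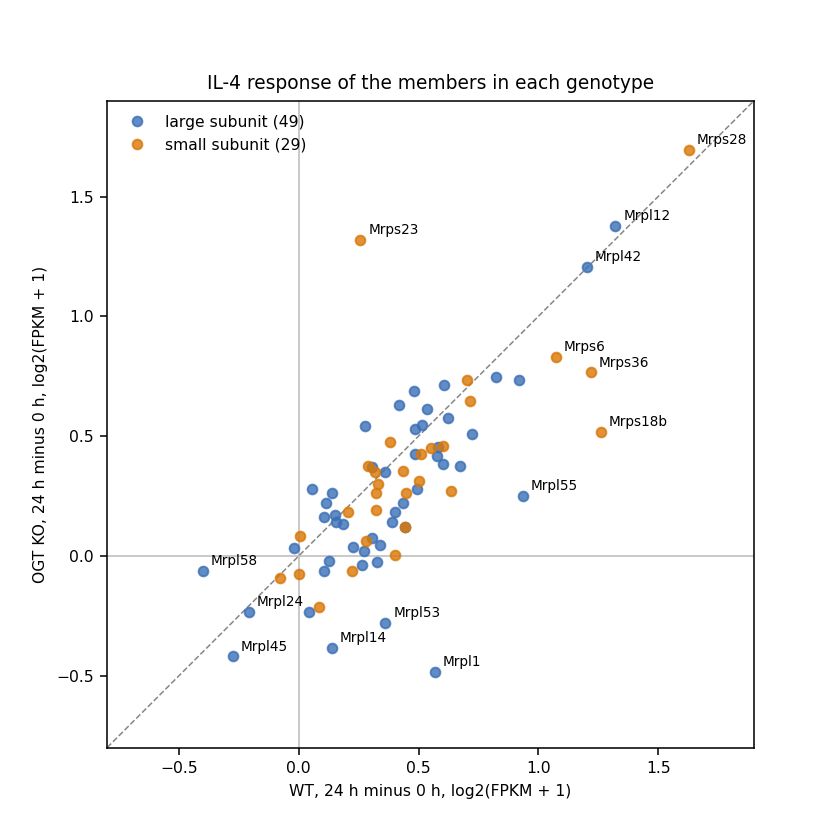
Each point is a gene, with its 24 h minus 0 h difference in log2(FPKM + 1) in WT on the horizontal and in the OGT knockout on the vertical axis, coloured by subunit, and the dashed line marks equal differences. Most points lie at the upper right, Mrps28, Mrpl12 and Mrpl42 lie near the line past 1 on both axes, Mrps23 lies far above it at 0.26 and 1.32, and Mrpl1 lies below it at 0.57 and -0.48.

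At 0 h the knockout and WT were close for most genes. The knockout was below WT for 41 of the 78 genes (27 large, 14 small), beside 59.5% of 11479 genes kept. The median difference was -0.02, with -0.03 in the large and 0.00 in the small subunit, and -0.05 over all genes kept. The large-subunit median turned to 0.03 when the columns were rescaled to a median difference of 0, and the small-subunit median to -0.02 without genes that share exons, so neither has a firm direction. Past 1.5-fold were 2 higher genes, or 2.56%, beside 2.78% of genes kept, and 1 lower gene, or 1.28%, beside 3.34%.

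The lower gene was Mrps23, with a log2 difference of -0.95 at 0 h. Its value in the knockout at 0 h, 9.43 FPKM, lay below the 19.2 to 25.1 FPKM of the other 3 libraries. The higher ones were Mrps18b (0.59) and Mrpl1 (0.69). Mrpl1, part of the stalk beside which spent tRNA leaves the ribosome, stood at 2.43, 4.09, 4.52 and 2.94 FPKM (chr5:96209493-96266727, + strand). Mrpl17 was at 0.53 and Mrpl35 at 0.35, both under 5 FPKM. Mrps6 was at 0.56, Mrpl52 of the central protuberance at 0.37, Mrpl43 at 0.29 and Mrps36 at 0.28. Mrpl52 stood at 11.9, 15.2, 15.7 and 15.4 FPKM, so WT at 0 h was its low library. On the lower side, Mrpl58 was at -0.54 and Mrpl33 at -0.37, both under 5 FPKM. Mrpl51 stood at 5.76, 8.03, 3.72 and 6.29 FPKM, a log2 difference of -0.52 at 0 h. Mrpl27 followed at -0.37. Mrps34, a mitochondrial addition to the small subunit, stood at 6.99, 8.21, 5.31 and 6.16 FPKM (-0.34). Mrpl54, near the stalk, stood at 19.2, 30.2, 15.1 and 23.0 FPKM (-0.33).

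At 24 h more of the genes were lower in the knockout. The knockout was below WT for 59 of the 78 (39 large, 20 small), or 75.6%, beside 58.6% of 11302 genes kept. With the columns rescaled to a median difference of 0, it was below WT for 51. The 58.6% does not apply to that count, as this rescaling by construction puts as many genes kept above 0 as below. The median difference was -0.14, with -0.11 in the large and -0.16 in the small subunit, and -0.05 over all genes kept. None was 1.5-fold higher, beside 2.91% of genes kept, and none was 1.5-fold lower, beside 2.47%. The differences were thus many in number and small in size.

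The widest was that of Mrpl14, at 11.1, 12.3, 10.7 and 7.95 FPKM, a log2 difference of -0.57 at 24 h. The knockout at 24 h was its lowest library. Mrpl11, at the base of the stalk, stood at 6.36, 9.37, 5.23 and 6.56 FPKM (-0.46), with WT at 24 h apart from the other 3. Mrpl55, a large-subunit protein with a bacterial counterpart, stood at 5.26, 10.99, 6.46 and 7.88 FPKM (-0.43). Mrpl16, near the site of tRNA binding, stood at 13.7, 17.6, 12.4 and 12.8 FPKM (-0.43), and Mrpl34 stood at 16.7, 28.2, 14.2 and 20.6 FPKM (-0.43). Of the 19 genes higher in the knockout at 24 h, Mrpl17 was widest at 0.38, under 5 FPKM, and Mrpl48, also under 5 FPKM, was at 0.20. Among those at 5 FPKM or more the 5 widest were Mrps6 (0.32), Mrpl38 (0.30), Mrpl3 (0.28), Mrpl49 (0.25) and Mrpl21 (0.20). Mrpl38, in the central protuberance, stood at 3.52, 5.45, 4.45 and 6.97 FPKM. Mrpl3, a core protein of the large subunit, stood at 4.23, 5.46, 5.05 and 6.83 FPKM. Mrpl49 stood at 10.3, 16.2, 11.5 and 19.4 FPKM.

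The genotypes overlapped for most genes. In 13 genes (8 large, 5 small), or 16.7%, both knockout libraries were below both WT libraries, beside 16.8% of 12000 genes. They were Mrpl14, Mrpl16, Mrpl19, Mrpl27, Mrpl28, Mrpl33, Mrpl37, Mrpl58, Mrps9, Mrps17, Mrps24, Mrps30 and Mrps34. In 2 genes, or 2.56%, both knockout libraries were above both WT libraries, beside 7.78%. These were Mrpl17, at the tunnel exit, with 1.81, 2.07, 3.05 and 2.996 FPKM, and Mrpl52. Time by time, 38 genes, or 48.7%, were lower in the knockout at both times, beside 42.9% of 12000 genes. Higher at both were 16, or 20.5%, beside 25.1%. Higher at 0 h and lower at 24 h were 21, or 26.9%, beside 15.3%, and 3 were the reverse (3.85%, beside 16.4%). Across the 78 genes, the differences at 0 h and at 24 h had a Spearman rho of 0.417 and a Pearson r of 0.336, and across 12000 genes 0.443 and 0.352.

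**Figure D3:**
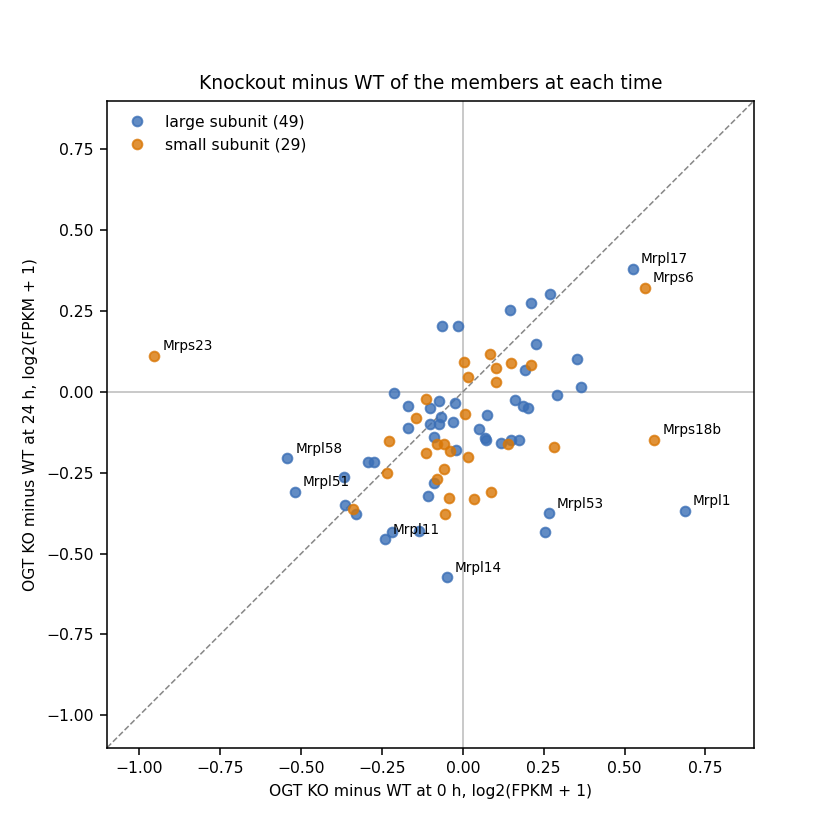
Each point is a gene, with its knockout minus WT difference in log2(FPKM + 1) at 0 h on the horizontal and at 24 h on the vertical axis, coloured by subunit, and the dashed line marks equal differences. Points spread on both sides of 0 at 0 h and lie mostly below 0 at 24 h (59 of 78), and Mrps23 stands alone at -0.95 and 0.11.

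Subtracting the WT difference from that of the knockout gave a value below 0 for 54 of the 78 genes (32 large, 22 small), or 69.2%, beside 49.1% of 12000 genes. Its median was -0.09, with -0.13 in the large and -0.08 in the small subunit, and 0.00 over all genes. With genes at 5 FPKM or more the medians were -0.06 and -0.10, and without genes that share exons -0.21 and -0.08, so the order of the subunits is not firm. Past 2-fold on the higher side was Mrps23 (1.06), or 1.28% of the set, beside 1.27% of genes. Past 2-fold on the lower side was Mrpl1 (-1.05), beside 1.16%. Mrps18b followed at -0.74, then Mrpl55 (-0.69), Mrpl53 (-0.64, under 5 FPKM), Mrpl14 (-0.52), Mrps36 (-0.45) and Mrps21 (-0.40). On the higher side, among those that reached 5 FPKM in any library, Mrpl21 (0.27), Mrpl18 (0.21), Mrpl51 (0.21) and Mrpl46 (0.13) came after Mrps23. Under 5 FPKM, Mrpl58 was at 0.34 and Mrpl48 at 0.22. Mrpl21 stood at 6.83, 8.47, 6.48 and 9.91 FPKM and Mrpl46, in the central protuberance, at 8.16, 9.07, 7.14 and 8.77 FPKM. Each of these rests on 4 single libraries.

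By origin, the genes with bacterial counterparts and those found only in mitochondria were alike. The median IL-4 difference was 0.37 in WT and 0.27 in the knockout over 46 genes with a counterpart, and 0.38 and 0.26 over 31 mitochondria-specific genes. The 10 mitochondria-specific genes of the small subunit, Mrps23 and Mrps34 among them, had medians of 0.44 and 0.46. All 10 were above 0 in both genotypes, beside 79.5% of the 78 genes and 43.5% of 12000 genes. The 21 of the large subunit had medians of 0.36 and 0.16. Moving Mrps18a and Mrps30, whose products sit in the large subunit, to it and leaving out Mrps36 gave 0.36 and 0.22 for 51 large-subunit genes and 0.39 and 0.33 for 26 small-subunit genes.

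The stalk and its base (Mrpl10, Mrpl11, Mrpl12, Mrpl53 and Mrpl54) had a median IL-4 difference of 0.49 in WT and 0.28 in the knockout. All 5 were lower in the knockout at 24 h, with a median of -0.38. The same direction held for 75.6% of the 78 genes and 58.6% of 11302 genes kept. Mrpl10, the protein that carries the copies of Mrpl12, stood at 13.8, 18.96, 14.5 and 17.1 FPKM. Mrpl53 stood at 2.67, 3.72, 3.42 and 2.64 FPKM, and most of its exon bases are shared.

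The tunnel exit (Mrpl17, Mrpl22, Mrpl23, Mrpl24, Mrpl45 and Mrpl47) had lower medians of 0.22 in WT and 0.03 in the knockout. Above 0 were 4 and 3 of the 6 genes. These counts stand beside 92.3% and 80.8% of the 78 genes, and 52.0% and 52.7% of all genes kept. The tunnel exit holds Mrpl24 and Mrpl45, the genes with both 24 h libraries below both 0 h ones. Mrpl22, which lines the tunnel, stood at 11.4, 16.4, 11.2 and 15.3 FPKM, and Mrpl47 at 1.86, 3.28, 2.27 and 3.48 FPKM. The 6 genes thus differed in sign.

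The central protuberance (Mrpl18, Mrpl27, Mrpl38, Mrpl40, Mrpl46, Mrpl48, Mrpl52 and Mrps30) had medians of 0.27 and 0.24, with 8 and 6 of 8 above 0. The shares above 0 were 92.3% and 80.8% over the 78 genes, and 52.0% and 52.7% over all genes kept. Mrpl40 stood at 14.8, 19.9, 15.6 and 17.9 FPKM, Mrpl48 at 2.30, 2.43, 2.27 and 2.96, and Mrps30 at 2.79, 3.42, 2.67 and 2.52. The head and platform of the small subunit (Mrps7, Mrps9, Mrps10, Mrps11, Mrps12, Mrps14, Mrps18c and Mrps21) had medians of 0.33 and 0.23. Above 0 were 7 and 6 of these 8, beside the same shares. Mrps12, which takes part in decoding, stood at 8.50, 13.8, 8.73 and 10.7 FPKM. Mrps7 stood at 11.6, 14.7, 13.5 and 15.6 FPKM, Mrps9 at 4.46, 4.45, 4.04 and 3.78, Mrps11 at 4.36, 6.24, 4.39 and 5.90, and Mrps14 at 4.70, 5.97, 4.72 and 6.42. Of the 8, only Mrps9 was below 0 in both genotypes.

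The ribosomal RNAs of the mitochondrial ribosome differed in sign from its proteins. mt-Rnr1, the RNA of the small subunit, stood at 292.9, 138.9, 389.9 and 143.7 FPKM, log2 differences of -1.07 in WT and -1.43 in the knockout. mt-Rnr2, the RNA of the large subunit, stood at 265.5, 151.3, 346.6 and 159.3 FPKM (-0.81 and -1.12). The kit is named for messenger RNA, and how far it captures these RNAs was not tested. The 13 messenger RNAs of the mitochondrial genome, which this ribosome translates, had medians of 0.69 in WT and 0.46 in the knockout. All 13 were above 0 in both genotypes, beside 43.5% of 12000 genes. All 13 were also higher in the knockout than in WT at 0 h (median 0.29), where the 78 protein genes had a median near 0. In that comparison 59.5% of 11479 genes kept were lower in the knockout.

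Among 5 further ribosome proteins whose symbols do not begin with Mrp, the median IL-4 difference was 0.40 in WT and 0.50 in the knockout. All 5 were above 0 in both, beside 79.5% of the 78 genes and 43.5% of 12000 genes. Gadd45gip1 (0.62 and 0.50), Ptcd3 (0.58 and 0.51), Dap3 (0.40 and 0.21) and Chchd1 (0.38 and 0.01) had no library far from the rest. Aurkaip1 stood at 9.87, 11.2, 9.12 and 22.0 FPKM, so the knockout at 24 h was apart from the other 3 libraries.

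The factors that work with the ribosome had a median of 0.31 in WT and 0.25 in the knockout over 16 genes. Past 1.5-fold were 3 and 4 of them, beside 13.3% and 13.8% of genes kept. Tufm, the elongation factor that brings aminoacyl-tRNA, stood at 11.3, 19.7, 12.4 and 23.8 FPKM (0.75 and 0.89). Gfm1, the factor that moves the ribosome along, stood at 8.34, 14.5, 7.96 and 14.5 FPKM (0.73 and 0.79). Lrpprc, which stabilises mitochondrial messenger RNA, had differences of 0.71 and 0.82, and Tsfm, the exchange factor of Tufm, 0.45 and 0.74. Slirp, the partner of Lrpprc, stood at 8.22, 11.1, 4.45 and 5.38 FPKM, with both knockout libraries below both WT ones (-0.76 at 0 h and -0.92 at 24 h). Slirp and Lrpprc therefore differed in their genotype values. Oxa1l, which inserts the new chains into the inner membrane, was lower at 24 h (-0.54 and -0.44).

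Of 27 assembly factors kept, the medians were 0.10 and 0.16. Past 1.5-fold were 5 and 4, beside 13.3% and 13.8% of genes kept. Above 0 were 18 and 19, beside 52.0% and 52.7%, and 9 and 8 were below 0. C1qbp, a matrix protein needed for mitochondrial translation, stood at 10.1, 27.5, 10.8 and 27.3 FPKM (1.36 and 1.26). Mpv17l2, an inner membrane protein required for ribosome assembly, stood at 7.31, 18.1, 6.16 and 15.3 FPKM (1.2 and 1.19). Mrm3, a methyltransferase of the large ribosomal RNA, had differences of 0.69 and 0.47, the matrix protease subunit Clpp 0.67 and 0.63, and Rcc1l 0.61 and 0.71. The genes that charge mitochondrial tRNA had medians of 0.27 (18 kept) and 0.21 (16 kept), with Gatc (0.62) past 1.5-fold in WT. In the knockout Yars2 (0.80), Gatc (0.79) and Qrsl1 (0.70) were past it. That is 1 gene in WT and 3 in the knockout, beside 13.3% and 13.8% of genes kept.

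Import genes, whose products bring the ribosomal proteins into the matrix and fold them, had medians of 0.59 and 0.45 over 14 genes. Past 1.5-fold were 7 and 4 of these, beside 13.3% and 13.8% of genes kept. Hspd1, the chaperonin of the matrix, stood at 33.2, 88.6, 31.6 and 71.3 FPKM (1.39 and 1.15). Its partner Hspe1 had differences of 1.05 and 0.71 and Tomm40, the channel of the outer membrane, 1.07 and 0.91. Among 12 regulators of mitochondrial genes the medians were 0.21 and 0.26. Myc stood at 1.98, 21.8, 1.55 and 16.6 FPKM (2.94 and 2.78). Ppargc1b, a coactivator of respiratory genes, stood at 0.432, 6.05, 0.464 and 7.81 FPKM (2.30 and 2.59). Nrf1, Gabpa and Tfam, which act on nuclear promoters or the mitochondrial genome, stayed between 1.08 and 1.57, 9.22 and 11.4, and 3.45 and 5.22 FPKM.

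**Figure D4:**
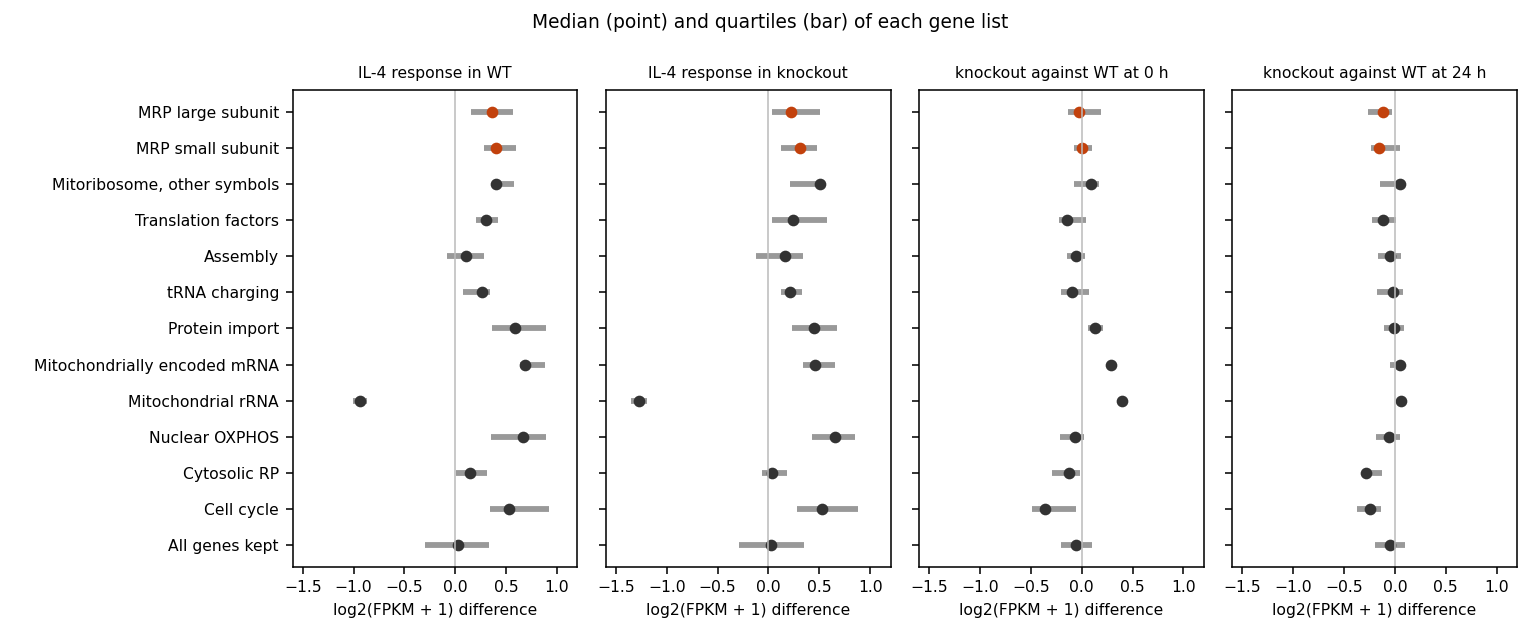
For each gene list (rows) the point is the median and the bar spans the quartiles of the log2(FPKM + 1) difference, in 4 panels for IL-4 in each genotype and for the genotypes at each time, with both subunits in orange. The subunit medians of 0.36 and 0.40 in WT lie between the 0.14 of cytosolic ribosomal proteins and the 0.66 of nuclear oxidative phosphorylation genes, and the mitochondrial ribosomal RNAs lie far to the left in both IL-4 panels.

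Beside 2 other nuclear sets, the median of the mitochondrial ribosomal protein genes lay in between for IL-4 in either genotype and for the genotypes at 24 h, but not for the genotypes at 0 h. The 78 cytosolic ribosomal protein genes had median IL-4 differences of 0.14 in WT and 0.04 in the knockout, with 59 and 47 above 0. The 83 nuclear oxidative phosphorylation genes had medians of 0.66 and 0.65, with 78 and 77 above 0. Of all genes kept, 52.0% and 52.7% were above 0. Both sets were taken by symbol alone, so they may hold genes whose products are not subunits. Between genotypes at 24 h the median was -0.28 for the cytosolic set, with 8 above 0. It was -0.14 for the mitochondrial set, with 19 above 0, and -0.06 for the oxidative phosphorylation set. Of all genes kept, 58.6% were lower in the knockout at that time. At 0 h the medians were -0.12 for the cytosolic, -0.06 for the oxidative phosphorylation and -0.02 for the mitochondrial set. Whether these sets differ was not tested, since each comparison has 1 library a side.

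Genes of the cell cycle and of other cell types differed between the same libraries. Of 19 cell cycle genes kept, 18 were higher at 24 h in each genotype (median 0.53 in both). Among all genes kept these shares were 52.0% in WT and 52.7% in the knockout. The knockout was below WT for 15 of 18 at 0 h (median -0.36) and 17 of 19 at 24 h (median -0.24). For all genes kept those shares were 59.5% and 58.6%. The summed level of the 20 listed genes was 162.7, 371.7, 142.4 and 371.4 FPKM. Pcna alone stood at 74.0, 214.4, 70.1 and 237.8 FPKM. All 8 macrophage markers were lower at 24 h in both genotypes. The summed level of 10 neutrophil markers was 3295, 1067, 2129 and 717.2 FPKM, and that of 7 monocyte markers 385.9, 1860, 223.2 and 1371 FPKM. The 7 fibroblast markers summed to 13.1, 6.50, 7.85 and 4.89 FPKM and the 5 B cell markers to 13.9, 4.86, 9.40 and 3.09 FPKM. The 5 T cell markers summed to under 1 FPKM in each library, with 3 of them at 0 in the knockout at 0 h and 4 at 24 h. The part of these genes and cells in the values of the ribosomal protein genes was not tested.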

How the data were processed

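The authors deposited 1 table with a value per Ensembl gene and library, and STAR, StringTie and GRCm38 (mm10) are named in the submitters' processing notes. For versions, annotation release and strandedness, nothing is given in the sources used here. The deposited values were read as FPKM from the values themselves, since column totals differ. Raw counts were not used. Identifiers were matched to GENCODE M21 symbols (52403 matched, 147 not) and rows sharing a symbol were summed, giving 52476 names. Differences are log2(FPKM + 1). The background of a comparison was every gene that reached 1 FPKM in any of its libraries. Folds of 1.5 and 2 on that scale were counted. With 1 library per group no test was made. Genes named are the 5 highest and 5 lowest by mean level, the 5 widest differences each way per comparison among those at 5 FPKM or more, those past 2-fold and the region lists, with members past 1.5-fold (at most 6) of other lists; Oxa1l, Dap3, Chchd1, Ptcd3, Nrf1, Gabpa, Tfam, the pseudogenes and the genes sharing exons were chosen after their values were seen. The members and lists were chosen with earlier results of these data known. Of the listed symbols, Mtres1 and Wbscr16 were not matched. Motifs were searched on both strands of RefSeq windows. The code was tested on simulated data and run with Python 3.11.15, pandas 2.3.3, numpy 2.4.6 and matplotlib 3.10.9. Of 10 alternatives, 9 were planned and 1, adding pseudogene values, was chosen after seeing the data.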

Additional observations from a re-analysis of the deposited data

Results flagged for a closer look

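For 2 genes the IL-4 difference had opposite signs in the genotypes and the responses differed by 1.5-fold or more. Mrpl1 had a knockout response minus that of WT of -1.05, with 24 h above 0 h in WT and below it in the knockout. Mrpl53 had a value of -0.64 in the same direction. Each group held 1 library, so the difference was not tested. Both genes were under 5 FPKM in every library, and Mrpl53 shares most of its exon bases with another gene.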

How the results depend on the processing

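Of 210 values under 10 alternatives for 23 results, 187 stayed within the tolerance, 23 moved past it and 0 medians reversed beyond it. The tolerance was 0.1 for a log2 median, 1.5 times for a count and 0.1 of the value for a share. Lifting the filter of 1 FPKM changed nothing, as all 78 genes pass it. The 23 values of that alternative could not move and are among the 187. A pseudocount of 5 gave a WT median of 0.22 for the large and 0.25 for the small subunit and a knockout median of 0.20 for the small subunit, with 10 genes past 1.5-fold and 2 past 2-fold in WT and 8 past 1.5-fold in the knockout. A pseudocount of 0.1 gave a small-subunit median of 0.42 in the knockout. With the 45 genes that share no exon base with another gene, the large-subunit median in WT was 0.48, genes above 0 numbered 42 in WT and 39 in the knockout, 3 were past 2-fold in WT and 7 past 1.5-fold in the knockout. In that set, 22 genes were lower in the knockout at 0 h and 34 at 24 h, 34 had the smaller response, and the shares were 0.112%, 0.155%, 0.110% and 0.138%; fewer genes enter those counts and sums. Without mitochondrially encoded genes and the 10 highest genes in the total, the shares were 0.261%, 0.355%, 0.259% and 0.328%. The large-subunit median at 0 h between genotypes changed sign within the tolerance, to 0.03 with centred columns and 0.07 without overlapping genes, as did the small-subunit one, to -0.00029 at equal totals and -0.017 without overlapping genes. The large-subunit median of the response difference ran from -0.21 (no overlapping genes) to -0.059 (pseudocount of 5), with -0.062 at 5 FPKM or more, where the small subunit had -0.10, and -0.078 with pseudogenes added. Between genotypes at 24 h, centring gave -0.068 for the large and a pseudocount of 5 gave -0.099 for the small subunit. At equal transcript length, members under 5 FPKM carry the wider counting error, and a filter at 5 FPKM left 56 genes. Length differs widely, with 8631 exon bases in Mrps35, the lowest gene by mean level, and 783 in Mrps28. The filter therefore does not sort genes by counting error alone.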
